A study of Mus musculus with 8 samples.

Results

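The 10 genes of the microRNA processing pathway described here, Drosha, Dgcr8, Dicer1, Xpo5, Ran, Ago1, Ago2, Tarbp2, Lin28a and Tut7, were examined for chromatin immunoprecipitation peaks of 3 proteins. They were taken by name from 21887 protein-coding genes of the RefSeq annotation, each as a window of the gene with 1 kb on either side. The cells, neural progenitor cells in primary culture, came from hippocampus of male C57BL/6 mice, with no treatment, transgene or age named in the labels. ChIP-seq, in which DNA that is fixed to a protein and pulled down with it is sequenced, was done for Mgea5, Panx2 and Polr1c with 2 replicate libraries each, beside 2 input libraries that were not used here. Mgea5 removes O-GlcNAc from proteins and is now named Oga, Panx2 is a pannexin channel protein, and Polr1c is a subunit that RNA polymerase I and RNA polymerase III have in common. The series title names the miR-9 locus as its object, so the processing genes are a look at the same lists outside that locus.

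MicroRNAs are cut from longer transcripts in steps. In the nucleus Drosha, an RNase III enzyme, and its RNA-binding partner Dgcr8 release a hairpin from the primary transcript. The export receptor Xpo5 carries the hairpin through the nuclear pore together with the small GTPase Ran, and in the cytoplasm Dicer1, with its partner Tarbp2, cuts it to a duplex. The Argonaute proteins Ago1 and Ago2 hold the mature strand. Lin28a, an RNA-binding protein of stem and progenitor cells, recruits uridylyl transferases such as Tut7 to the let-7 precursor. The messenger RNAs of these genes are made by RNA polymerase II, of which Polr1c is no subunit.

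The lists held 826 and 35927 peaks in replicates 1 and 2 of Polr1c, 145405 and 478662 in those of Panx2, and 536877 and 521566 in those of Mgea5. Fold enrichment, p and q of each peak are the authors' values and were used only within a list. Read depth is unknown from peak lists, and nothing in the labels says that the replicates came from separate cultures or animals. Peak names place replicate 1 of Panx2 and of Polr1c in a calling run of their own, so run and replicate cannot be told apart for these proteins. The lists also hold weak positions: the q of 146 of 151 member peaks of Mgea5 replicate 1 was listed as 1, as it was for 142 of 145 in replicate 2. The labelled cell type could not be checked against its markers, since peaks of these proteins are no measure of expression.

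Tut7 and Drosha carried the 2 member peaks with the highest fold enrichment in the Polr1c list of replicate 2, both over the start of the gene. Tut7 was the 1 member with Polr1c peaks in both replicates. It was therefore the only member that could have peaks of all 6 lists within 1 kb of its start site, and it had them. The share of all genes with peaks of all 6 lists there was not computed. Polr1c peaks of replicate 2 lay within 1 kb of the start in 5 of the 9 members with an entry in the promoter table, Tut7, Drosha, Ran, Dgcr8 and Lin28a, while 14.4% of all 17492 genes with an entry had one. In replicate 1 this was 1 of 9 members against 0.497% of genes, and in both replicates 1 of 9 against 0.434%. No test was made on these counts: the members were picked by name with results of these data known, and their number is small.

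The bases before the start site of 5 members are shown. Polr1c peaks of replicate 2 reach into them in Tut7, Drosha and Lin28a, the Ran peak begins downstream of the start, and Xpo5 had none in either list. Each is the 250 bases upstream of the start in RefSeq (GRCm38.p6, the build of mm10), 5′ to 3′ on the strand of the gene. Capitals mark CCAAT and GGGCGG on either strand, so ATTGG and CCGCCC are marked too.
Tut7, chr13:59823148-59823397, minus strand: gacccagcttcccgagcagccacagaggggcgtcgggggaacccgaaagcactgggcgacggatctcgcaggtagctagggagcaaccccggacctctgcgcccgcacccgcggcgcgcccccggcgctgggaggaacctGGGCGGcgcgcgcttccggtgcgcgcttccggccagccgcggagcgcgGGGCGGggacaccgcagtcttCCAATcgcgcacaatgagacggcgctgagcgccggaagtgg
Drosha, chr15:12824565-12824814, plus strand: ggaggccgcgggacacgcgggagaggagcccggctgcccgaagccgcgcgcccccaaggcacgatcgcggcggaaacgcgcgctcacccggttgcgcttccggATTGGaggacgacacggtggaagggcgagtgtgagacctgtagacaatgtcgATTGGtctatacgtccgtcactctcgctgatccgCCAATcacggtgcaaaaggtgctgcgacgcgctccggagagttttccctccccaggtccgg
Lin28a, chr4:134018817-134019066, minus strand: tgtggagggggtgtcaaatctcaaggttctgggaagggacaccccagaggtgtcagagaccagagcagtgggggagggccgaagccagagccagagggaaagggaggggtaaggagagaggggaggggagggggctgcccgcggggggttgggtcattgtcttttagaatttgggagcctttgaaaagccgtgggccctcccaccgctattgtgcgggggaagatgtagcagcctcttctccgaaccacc
Ran, chr5:129019906-129020155, plus strand: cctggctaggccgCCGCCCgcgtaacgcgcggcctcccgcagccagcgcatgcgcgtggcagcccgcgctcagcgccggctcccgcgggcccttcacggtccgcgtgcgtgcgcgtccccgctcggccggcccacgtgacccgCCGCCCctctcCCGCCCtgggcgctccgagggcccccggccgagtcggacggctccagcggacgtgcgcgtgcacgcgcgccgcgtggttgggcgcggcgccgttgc
Xpo5, chr17:46202561-46202810, plus strand: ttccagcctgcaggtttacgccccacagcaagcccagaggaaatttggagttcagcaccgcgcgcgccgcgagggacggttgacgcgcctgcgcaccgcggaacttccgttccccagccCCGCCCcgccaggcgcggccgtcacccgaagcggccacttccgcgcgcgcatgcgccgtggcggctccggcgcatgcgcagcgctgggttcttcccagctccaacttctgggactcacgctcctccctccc

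CCAAT was found in 6 of the 9 member windows of 250 bases and in 36.5% of all such windows, GGGCGG in 7 and in 42.7%. TATAAA was in no member window and in 12.4% of all, and GGTTCGA, a stretch of the B box of transfer RNA genes, in no member window and in 0.835% of all. CACGTG occurred in Ran alone among the members, 118 bases before the start, against 6.65% of all windows. GCGCATGC occurred in Xpo5 and Ran, as overlapping matches on both strands, against 2.98% of all windows. GC content was 74.0% in Tut7, 66.4% in Drosha, 81.6% in Ran and 70.8% in Xpo5, where the median of all windows was 55.2%. Lin28a stood apart from these, with 7 CpG pairs against 36 in Tut7, 33 in Drosha, 49 in Ran and a median of 10 over all windows. Xpo5, with 33 CpG pairs like Drosha, had no Polr1c peak, and Lin28a, with 7, had one at a q of 0.997. Of the members not shown, Dgcr8, with 36, had a replicate 2 peak near its start. Dicer1, with 39, Ago1, with 26, and Tarbp2, with 18, had none there. A relation of CpG pairs to Polr1c peaks was not tested. The sequence matches are letters in a window and say nothing of which factor was there.

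**Figure D1:**
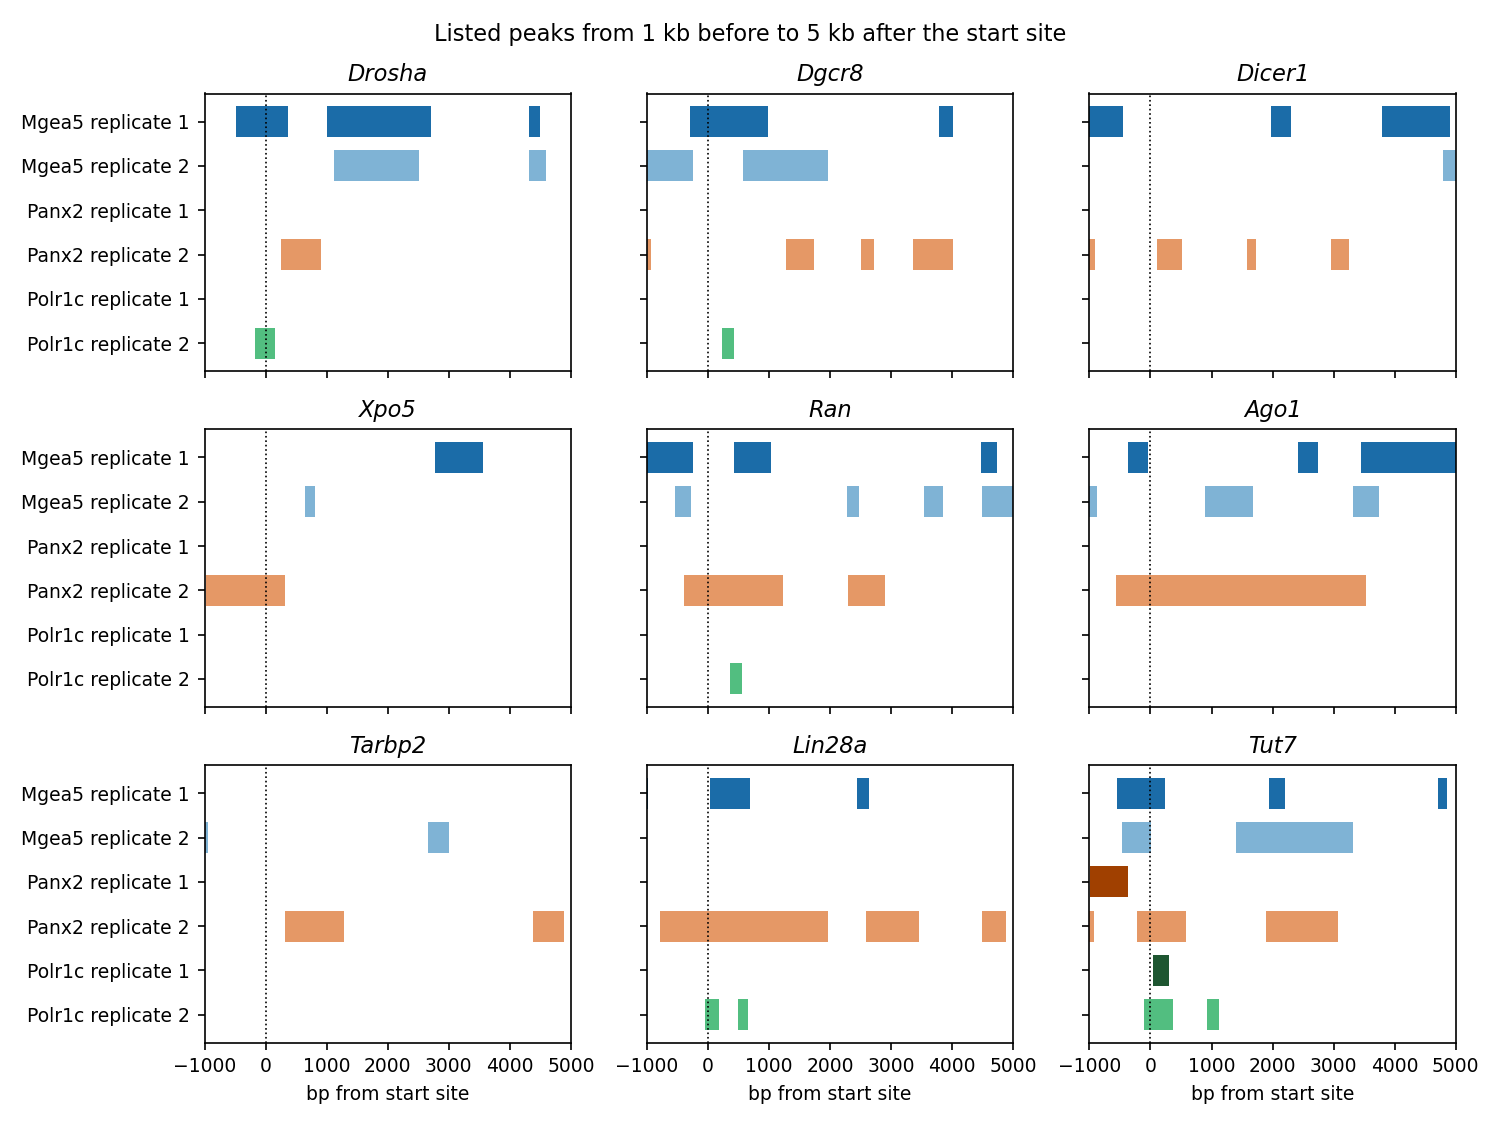
Listed peaks from 1000 bp before to 5000 bp after the start site of 9 members, 1 row for each list, with the x axis in bp from the start (dotted line) and each bar spanning 1 peak. Polr1c bars of replicate 2 touch or follow the start in Tut7, Drosha, Lin28a, Dgcr8 and Ran, and Tut7 alone has a Polr1c bar of replicate 1.

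Tut7 (chromosome 13, 59771876 to 59823169) adds uridines to the 3′ end of precursor microRNAs. Its Polr1c peak of replicate 2 ran from 59822777 to 59823249, which is −102 to +370 bp of the start, with a 9.38-fold enrichment and a q of 1.25e-36. This was the 35th fold among 2520 start sites with a peak in that list, where the median was 2.77 and the highest 21.8. In replicate 1 the peak ran from 59822844 to 59823100, inside the replicate 2 peak, with a 3.05-fold enrichment and a q of 1. It ranked 80th of 87 start sites in that short list, whose median was 5.41, so the position was shared and the standing in the list was not. The upstream end of the replicate 2 peak covers the CCAAT 41 bases and the GGGCGG 62 bases before the start, and leaves out the GGGCGG at 110 bases. The Tut7 window overlaps the long non-coding RNA gene Etohd2 at its far end, away from the start. A further Polr1c peak of replicate 2 lay at +928 to +1115 bp with a 3.36-fold enrichment and a q of 0.184.

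The broad lists had peaks near the same start, though not all over the same bases. The 257 bp shared by the Polr1c replicates, at +47 to +303 bp, were overlapped by Mgea5 replicate 1 and Panx2 replicate 2 alone. Mgea5 peaks of both replicates shared 469 bp at −467 to +1 bp of the Tut7 start, with 2.06-fold and 1.47-fold enrichment and q of 0.71 and 1. That shared stretch was overlapped by both Panx2 lists and by Polr1c replicate 2, and no other shared stretch of Mgea5 in the 10 windows was overlapped by as many as 3 further lists. Panx2 had a peak at −992 to −365 bp in replicate 1 (1.76-fold, q of 1) and in replicate 2 one at −225 to +577 bp (2.13-fold, q of 0.622) and one at −1537 to −930 bp (2.16-fold, q of 0.925). The replicate 1 peak met the second of these, over 63 bp at −992 to −930 bp, and not the one over the start. In the whole Tut7 window the Panx2 replicates shared 212 bp in 2 stretches. The q of 0.71 was the lowest of all 151 member peaks of Mgea5 replicate 1.

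Drosha (chromosome 15, 12824804 to 12935291) is the longest of the 10 genes. Its Polr1c peak of replicate 2, 12824635 to 12824974, spanned −180 to +159 bp of the start with a 4.86-fold enrichment and a q of 1.29e-11, 137th among the 2520 start sites. It covers the CCAAT letters at 147, 95 and 61 bases before the start. The neighbour 6030458C11Rik starts 158 bp away on the other strand, inside the same peak, so the peak cannot be assigned to one of the 2 genes. Polr1c replicate 1 had no peak in the Drosha window. The other 6 Polr1c peaks of Drosha lay inside the gene from +11983 bp on and were weaker, with folds of 2.14 to 3.25 and q of 0.125 to 1. Mgea5 had a peak over the start in replicate 1 (1.77-fold, q of 1) and none within 1 kb in replicate 2, and Panx2 had one at +252 bp in replicate 2 (1.64-fold, q of 1) and none in replicate 1.

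Dgcr8 (chromosome 16, 18253948 to 18289251) had a Polr1c peak of replicate 2 at +231 to +421 bp, with a 3.06-fold enrichment and a q of 0.345. Of the 9 start sites, that of Dgcr8 was among the 4 with Mgea5 peaks of both replicates, 1.92-fold and 1.75-fold. The replicate 1 peak crossed the start, from −303 to +982 bp, and met 2 replicate 2 peaks, upstream at −303 to −245 bp and inside the gene at +575 to +982 bp. A Panx2 peak of replicate 2 lay 936 bp from the start (1.86-fold, q of 1). At +26815 bp a second Polr1c peak (2.73-fold, q of 0.997) coincided with Mgea5 peaks of both replicates and with Panx2 replicate 2. The window also overlaps Trmt2a, a neighbouring protein-coding gene, and the microRNA genes Gm24572 and Mir1306. Dgcr8 holds Mir1306, whose hairpin at 18284239 to 18284317 was overlapped by no peak of the 6 lists. The nearest peaks were 76 bp away for Mgea5 replicate 1 and 834 bp away for Panx2 replicate 2. Its 3p product is shown with the seed, bases 2 to 8, in capitals, as RefSeq gives it (GRCm38.p6, chr16:18284248-18284268, minus strand).
mmu-miR-1306-3p: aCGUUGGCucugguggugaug

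The export genes were unlike each other in the Polr1c lists. Ran (chromosome 5, 129020156 to 129024322), the shortest member at 4.17 kb, had 1 Polr1c peak of replicate 2 at +356 to +552 bp, with a 3.6-fold enrichment and a q of 0.0262, 365th among the start sites with a peak. Its Panx2 peak of replicate 2 spanned −400 to +1228 bp and so covered both the start and the Polr1c peak, with a 2.14-fold enrichment and a q of 0.702. Mgea5 peaks of both replicates shared −545 to −286 bp, at 1.68-fold and 1.47-fold. Panx2 replicate 1 had none in the Ran window.

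Xpo5 (chromosome 17, 46202811 to 46243598) had no Polr1c peak in either list. Its start lies 170 bp from that of Polh on the other strand, the same layout as at Drosha, and the Polr1c gene itself lies 321 bp beyond the 3′ end of Xpo5. Panx2 replicate 2 covered the start (1.68-fold, q of 1), and a Mgea5 peak of replicate 2 lay 643 bp inside (1.64-fold, q of 1). Replicate 1 of Mgea5 and of Panx2 had no peak within 1 kb of the start. The gene also holds the microRNA gene Mir693 and the small nuclear RNA gene Gm22474. Inside the gene the Mgea5 replicates overlapped in 7 stretches, the longest 1130 bp at +36026 to +37155 bp with 2.03-fold and 1.91-fold enrichment.

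At the dicing step, neither Dicer1 nor Tarbp2 had a Polr1c peak at its start. Dicer1 (chromosome 12, 104687740 to 104751968) had 1 Polr1c peak of replicate 2 far inside the gene, at +38805 to +38948 bp (2.75-fold, q of 0.997). Its Panx2 peak of replicate 2 at −2074 to −904 bp, 2.57-fold, had the lowest q of the 144 member peaks of that list, 0.16. That start site stood at percentile 94.0 of all genes in that list. Panx2 replicate 1 had no peak there, and Mgea5 had one 448 bp upstream in replicate 1 alone (1.67-fold, q of 1).

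Tarbp2 (chromosome 15, 102516077 to 102523676) encodes a double-stranded RNA-binding partner of Dicer1. The share of its window under Mgea5 peaks was 8.4% and 5.28% in the 2 replicates, the lowest of the 10 members in both, and the replicates had no base in common. It had no peak of Panx2 replicate 1 and none of Polr1c. The window overlaps Map3k12 and holds Npff, which lies 162 bp beyond the end of Tarbp2. The single Mgea5 peak of replicate 1, 102523871 to 102524804, lies over Npff, and so cannot be assigned to Tarbp2.

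The Argonaute genes had Polr1c peaks of replicate 2 inside the gene only. In Ago1 (chromosome 4, 126435012 to 126468707) there were 2, from +7535 to +8201 bp, with 3.06-fold and 2.75-fold enrichment and q of 0.498 and 0.997. The Ago1 start was covered by the widest member peak of Panx2 replicate 2, 4087 bp, at 2-fold enrichment and a q of 0.79. Mgea5 replicate 1 had a 2.05-fold peak 42 bp from the start, at percentile 94.6 of all start sites, and replicate 2 a 1.73-fold peak 901 bp from it. Both q were near or at 1, at 0.997 and 1.

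Ago2 (chromosome 15, 73101625 to 73184947) was looked at by its 2 ends, and its window also holds the long non-coding RNA gene Gm31725. Within 1 kb of the low-coordinate end there was 1 peak of Mgea5 replicate 1 (1.64-fold) and no peak of the other 5 lists. At the high-coordinate end all 4 broad lists had peaks, with folds of 1.91 and 1.7 for Mgea5 and 1.82 and 2.23 for Panx2 in replicates 1 and 2. Here Mgea5 peaks of both replicates shared 804 bp (73183793 to 73184596), inside which the Panx2 replicates shared 143 bp (73183807 to 73183949). This was the 1 place among the members where stretches shared by the replicates of Mgea5 and of Panx2 coincided. The q values were 1, 1, 1 and 0.618. Of 3 Polr1c peaks of replicate 2, all at q of 0.997 or 1, the nearest to this end was 73183260 to 73183448 (2.34-fold).

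Lin28a (chromosome 4, 134003330 to 134019196) had 3 Polr1c peaks of replicate 2. The one over the start, −44 to +174 bp, had a 2.75-fold enrichment and a q of 0.997, and those at +488 and +6691 bp had folds of 2.22 and 2.45 with q of 1. That fold, equal in all deposited decimals, is shared by 5208 peaks, 14.6% of that list, and by 4 of the 22 member peaks, those of Lin28a, Dicer1, Ago1 and Ago2. A Panx2 peak of replicate 2 covered −788 to +1972 bp, and with it the first 2 of the Polr1c peaks (2.2-fold, q of 0.772). Mgea5 replicate 1 had a peak from +29 bp (1.76-fold) and replicate 2 none within 1 kb. Away from the start the Mgea5 replicates coincided more in Lin28a than in the other members: 43.6% of the bases under either list were under both, against 0 to 20.0% elsewhere.

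**Figure D2:**
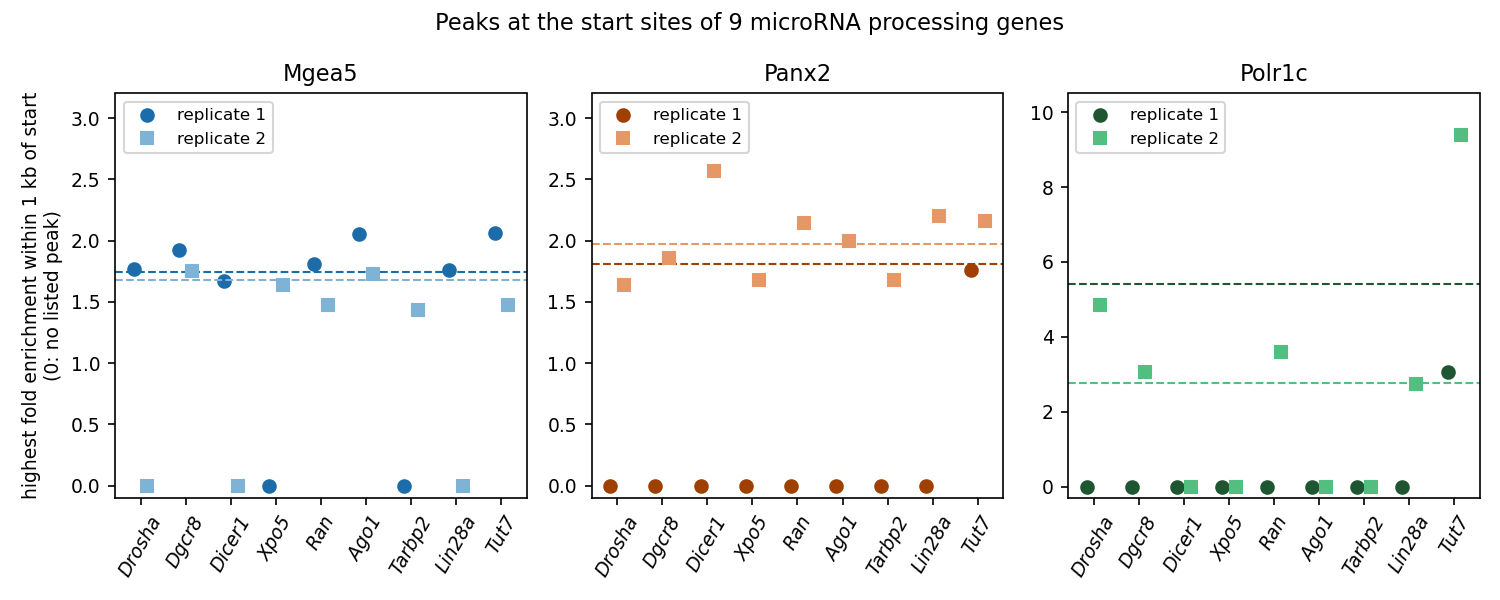
Highest fold enrichment of a peak within 1 kb of the start site, by gene and replicate, in a panel for each protein; the y axes differ and 0 stands for no listed peak. Dashed lines are the medians of all genes with a peak at the start in the same list. Tut7 at 9.38 and Drosha at 4.86 stand above the other members in Polr1c replicate 2, and Mgea5 and Panx2 values stay at or below 2.57.

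In the broad lists the counts of member windows with a peak lay near the shares of all genes or above them. All 10 had Mgea5 peaks in replicate 1 and in replicate 2, as 88.8% and 85.0% of protein-coding genes did, and in both replicates 10 members and 82.0% of genes. Panx2 peaks were in 7 of 10 windows in replicate 1 and in 10 in replicate 2, where 59.5% and 88.6% of genes had one, and in both in 7 against 57.1%. Ran, Tarbp2 and Lin28a, the 3 shortest members, were those with no Panx2 peak in replicate 1. Polr1c peaks were in 1 window in replicate 1, against 1.48% of genes, in 8 in replicate 2, against 42.6%, and in 1 in both, against 1.28%.

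At the start sites, 7 of 9 members had a Mgea5 peak in replicate 1 and 6 in replicate 2, with 70.0% and 49.8% of genes. Both replicates had one in 4 of 9, Dgcr8, Ran, Ago1 and Tut7, where the share of all genes was 40.4%. For Panx2 the counts were 1 and 9 of 9, with 12.7% and 74.2% of genes, and 1 in both replicates, Tut7, with 9.33%. The broad counts at the starts thus lie near the shares of all genes, and the 2 Panx2 lists differ from each other much as they do over all genes. For a q of at most 0.01, Polr1c replicate 2 had peaks in 2 of 10 windows, Tut7 and Drosha, where 3.71% of genes had one. No member had such a peak in the other 5 lists, where the shares of genes were 0.429% and 0.498% for Mgea5, 0.00457% and 0.905% for Panx2, and 0.475% for Polr1c replicate 1.

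Longer genes held more peaks. Drosha, with 110 kb, had 36 and 29 Mgea5 peaks and 28 Panx2 peaks in replicate 2, and Ran, with 4.17 kb, had 3, 4 and 2. Per 10 kb of window the members had a median of 3.3 and 3.42 Mgea5 peaks, 0.374 and 3.26 Panx2 peaks in replicates 1 and 2. Over all genes these medians were 2.9, 2.57, 0.388 and 2.76. Ran had the highest density of Mgea5 peaks, at percentiles 94.2 and 98.9 of all genes, from those 3 and 4 peaks.

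**Figure D3:**
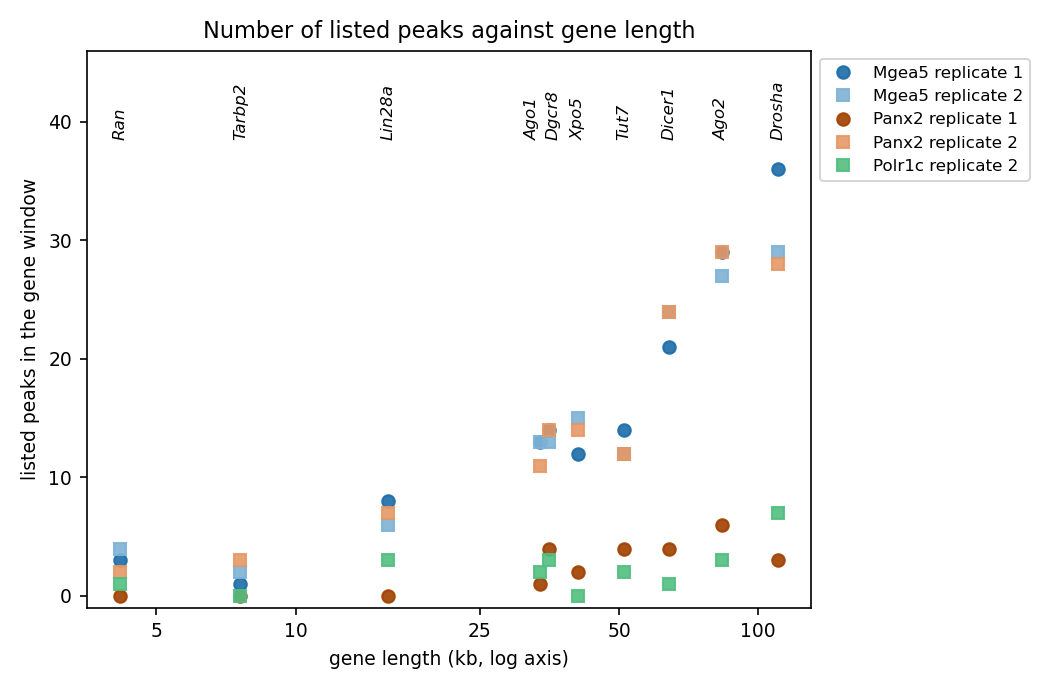
Number of listed peaks in the window of each of 10 members against its length in kb on a log axis, for 5 lists (Polr1c replicate 1, with 1 peak in all, is left out). Numbers are higher in the longer genes in the 2 Mgea5 lists and Panx2 replicate 2, and stay at or below 7 in Panx2 replicate 1 and Polr1c replicate 2.

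The share of a window under peaks ranged from 8.4% in Tarbp2 to 31.5% in Ago1 for Mgea5 replicate 1, and from 5.28% in Tarbp2 to 25.4% in Dgcr8 for replicate 2. The medians over the members were 23.0% and 17.7%, and those over all genes 19.2% and 12.5%. Of the 10 members, 7 and 9 were above the median of all genes. For Panx2 the shares ran from 0 in Ran, Tarbp2 and Lin28a to 6.51% in Dgcr8 in replicate 1, and from 11.3% in Tut7 to 36.2% in Ran in replicate 2. Ran and Lin28a were thus at 0 in the one replicate and at 36.2% and 33.0% in the other. The rank correlation of covered shares between the Panx2 replicates was −0.35 over the 10 members and 0.0129 over all 21887 genes, and between the Mgea5 replicates 0.345 and 0.516, given as descriptions. For Polr1c replicate 2 the highest shares were 3.19% in Ran and 3.12% in Lin28a, both from short windows, and Xpo5 and Tarbp2 were at 0.

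**Figure D4:**
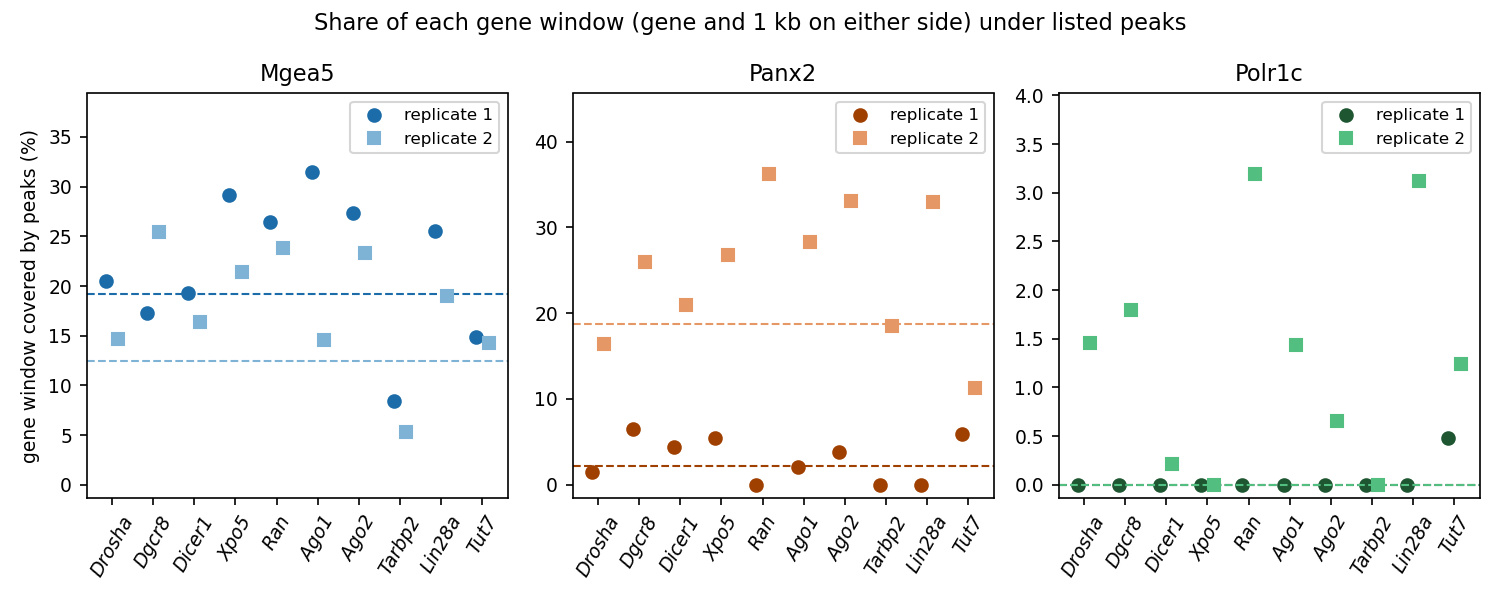
Percent of each gene window under listed peaks for 10 members, with a panel and a y axis for each protein, circles for replicate 1 and squares for replicate 2; dashed lines are the medians of all protein-coding genes. Tarbp2 is the lowest member in both Mgea5 lists, and the Panx2 replicates separate for every member.

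Beyond presence in a window, the replicates were compared base by base. Of the bases under Mgea5 peaks in either replicate, 14.9% over the members together were under both, in 71 stretches in 9 of the 10 genes, and 12.4% over all genes. For Panx2 it was 1.56%, in 9 stretches in 6 genes, and 3.62% over all genes. For Polr1c it was 5.20%, from the 257 bp of Tut7 alone, and 1.18% over all genes. Of the 71 Mgea5 stretches, 42 met no peak of the other lists, 26 met Panx2 replicate 2, 6 met Panx2 replicate 1 and 3 met Polr1c replicate 2. Panx2 replicate 2 peaks covered a median of 26.4% of the member windows. The matching shares over all genes were not computed, so these counts do not set the members apart.

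The highest peak of a member was seldom at its start in the broad lists. For Mgea5 it was at the start in 1 of 9 members in replicate 1 (Tut7) and in none in replicate 2, where 24.5% and 17.7% of genes with a peak had it there. For Panx2 it was 0 of 6 members with a peak and a start site in replicate 1 and 3 of 9 in replicate 2, with 12.7% and 33.3% of genes. For Polr1c replicate 2 it was 5 of the 7 members that had a peak and a start site, with 24.0% of genes. In replicate 1 it was the single member peak, with 33.9%. Ago2, with no entry in the promoter table, is left out of these counts.

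The wider pathway was read from a list of 56 further genes, of which 45 have a start site in the promoter table. Mgea5 peaks of both replicates were in 55 of their windows, 98.2% beside 82.0% of all genes, and at 26 starts, 57.8% beside 40.4%. Panx2 peaks of both were in 47 windows, 83.9% beside 57.1%, and at 1 start, 2.22% beside 9.33%. Polr1c replicate 2 had peaks in 41 windows, 73.2% beside 42.6%, and at 7 starts, 15.6% beside 14.4%. Gene length, with which the number of peaks in a window moves, was not matched in these shares. Polr1c peaks of both replicates were in 1 window (1.79% beside 1.28%), that of Ilf2, a double-stranded RNA-binding partner protein, with a 10.3-fold enrichment (q of 2.88e-16) in replicate 1 and 2.46-fold (q of 0.0151) in replicate 2. The export receptor Xpo1 had the largest of these peaks in replicate 2, 10.2-fold at a q of 4.14e-48, 31st among all start sites, and none in replicate 1. So Tut7 and Xpo1 stood close together in that list, while Xpo5, the export receptor of precursor microRNAs, had no peak.

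Polr1c replicate 2 peaks at a q of at most 0.01 were in 3 of the 56 windows, 5.36% beside 3.71% of all genes. Besides Xpo1 these were Pan3, a subunit of a deadenylase (q of 0.00186), and Cnot1, the scaffold of another (q of 4.05e-13). For Mgea5 the highest folds at starts by the geometric mean of both replicates were those of Tsn, the translin subunit of a nuclease (3.06-fold, q of 0.00377, and 2.29-fold, q of 0.533), Dcp1a (2.22-fold and 2.51-fold, q of 0.0556 and 0.00166) and Edc4 (2.1-fold and 2.19-fold, q of 0.433 and 0.0723). Dcp1a and Edc4 are decapping factors. All 3 exceeded the highest Mgea5 fold at a member start in replicate 2, 1.75 in Dgcr8. This follows in part from their choice as the highest of the 45, and is no comparison of these genes with the members. In the Dcp1a window the Panx2 replicate 2 peaks had a highest fold of 3.88 and a lowest q of 0.00127, which need not belong to the same peak. Gemin4 was the 1 gene of the 45 with Panx2 peaks of both replicates at its start (1.78-fold and 3.16-fold, q of 1 and 0.0428).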

How the data were processed

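The analysis used 6 peak lists, 1 for each ChIP library, and the 2 input libraries were not used here. Per the submitters' processing notes, the build was mm10 and the tools were MACS3 3.0.0a5, Bowtie2 2.3.5 and Trim Galore. Which control and cut-offs the caller had, and how duplicate reads were handled, is not given in the sources used here. Peaks were listed per replicate, in the broad layout for Mgea5 and Panx2 and the narrow layout for Polr1c. The values the authors deposited with a peak are a fold enrichment, which is a ratio of ChIP pileup to background, a −log10 p-value and a −log10 q-value.

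Genes came from RefSeq (GRCm38.p6), and start sites from its promoter table, taking the most upstream entry of a gene, with 17492 protein-coding genes matched and 9 of the 10 members. A peak counted when it overlapped the gene with 1000 bp on either side, or 1000 bp on either side of the start, by at least 1 bp. Covered shares are bases under peaks over the window. Percentiles are among all protein-coding genes, with no peak as 0. Exon positions were not used here. No test was run. The overlap code was checked on simulated intervals. Python 3.11.15, pandas 2.3.3 and numpy 2.4.6 were used.

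Members, the list of other pathway genes and the settings were chosen with earlier results of these data known. Named genes are all members, genes overlapping their windows, and other pathway genes with a peak at a q of at most 0.01, with Polr1c peaks in both replicates, or among the 3 highest at start sites per protein by the geometric mean of both replicates.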

Additional observations from a re-analysis of the deposited data

How the results depend on the processing

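Counts of members with peaks in both replicates depended on how weak a peak was admitted. With a −log10 p of at least 2, Mgea5 windows fell from 10 to 2 and Mgea5 starts from 4 to 0. Panx2 windows fell from 7 to 0 and Panx2 starts from 1 to 0, and the Polr1c counts of 1 stayed at 1. The shares of all genes fell too, from 82.0% to 16.8% for Mgea5 windows and from 40.4% to 2.48% for Mgea5 starts. Both Panx2 shares of all genes were below 2.48% at this setting, so these falls do not set the members apart. With a −log10 q of at least 2 all 6 counts were 0, those of Polr1c included, where the shares of all genes were 0 to 0.425%. With lists of at most 5000 peaks the Mgea5 and Panx2 counts were 0, where these shares were 0.0229% to 4.20%. The median covered share for Mgea5, 20.4%, became 0 under each of these 3 settings, as did the 15.9% over all genes. For Panx2 the median, 14.7% over both replicates, became 1.17%, 0 and 0. It was 26.4% without replicate 1 and 2.92% without replicate 2. Counting a peak only where no more of it lay outside the window than inside gave 2 Mgea5 starts, beside 29.8% of all genes. Widening the start window to 2500 bp gave 2 Panx2 starts, beside 22.7% of all genes. Taking either gene end for all 10 members, chosen after seeing the data, gave 7 for Mgea5 (64.3% of all genes) and 3 for Panx2 (20.1%). Leaving out a replicate gave 6 to 7 Mgea5 starts (49.8% to 70.0% of all genes) and 1 to 9 Panx2 starts (12.7% to 74.2%). It gave 1 to 8 Polr1c windows (1.48% to 42.6%) and 1 to 5 Polr1c starts (0.497% to 14.4%). The higher Panx2 and Polr1c counts came without replicate 1. Of the values under other settings, 25 moved. The other 50 stayed within 1.5 times the main count or, for covered shares, within the standard deviation between replicates. The 6 Mgea5 starts were among those that stayed. That deviation was 16.6 for the Panx2 share of 14.7%, and 0.949 for the Polr1c share of 0.671%. Even a fall of these shares to 0 thus counted as staying, so the 50 are no measure of stability.

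No paired analysis was possible because the results are counts and shares that come from no test. Depth is unknown, so the absence of a peak in a list is no measure of absent signal. For Panx2 and Polr1c the short list of replicate 1 limits every count over both replicates.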
